A study of Homo sapiens with 12 samples.

Results

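ANGPTL4 and the extracellular lipases were read as 7 genes of the 19677 in the count tables, matched by symbol: ANGPTL4, ANGPTL8, LPL, LIPC, LIPG, GPIHBP1 and LMF1. RNA was sequenced from CAOV3, an established human cell line labelled as epithelial high-grade serous ovarian carcinoma with wild-type genotype. Each of the 4 groups held 3 libraries. Control cells received DMSO, and no time is listed for them. Ascites cells received 10% ovarian cancer ascites, a fluid of the abdominal cavity, together with DMSO for 16 hours. Bezafibrate cells received 200 uM of the drug for 16 hours, and combination cells received 200 uM bezafibrate and 10% ascites for 16 hours. All cells were grown in DMEM with 10% fetal bovine serum. DMSO is not named for the groups with the drug, so solvent and drug cannot be told apart. The labels do not say whether the ascites came from 1 source or whether the replicates came from separate cultures, so p-values measure only the spread between these libraries.

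Lipoprotein lipase (LPL), hepatic lipase (LIPC) and endothelial lipase (LIPG) are secreted enzymes that act at the cell surface, where they release fatty acids from the triglycerides and phospholipids of lipoproteins. LMF1 helps them fold in the endoplasmic reticulum, and GPIHBP1 carries LPL across capillary endothelium. ANGPTL4 is a secreted protein that inactivates LPL, and ANGPTL8 is a related secreted protein that also takes part in LPL inhibition. ANGPTL4 is a textbook target of the PPAR nuclear receptors, which fibrate drugs such as bezafibrate activate, and it is also induced by hypoxia and by glucocorticoids.

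Stretches upstream of the RefSeq start sites (GRCh38.p14, plus strand) of ANGPTL4 and LIPG are given here, without any base that lies in an exon of GENCODE 29. These 2 members passed the edgeR test with the drug. For LIPG without ascites, some other fits given below did not. In GENCODE 29 the genes begin further upstream, at chr19:8363289 and chr18:49560699, so both stretches lie inside the annotated genes. The sequence upstream of those starts was not searched. Capitals mark matches, on either strand, to the motifs searched. The stretch of ANGPTL4 covers chr19:8363905-8364150, and that of LIPG covers chr18:49561891-49562030.
ANGPTL4: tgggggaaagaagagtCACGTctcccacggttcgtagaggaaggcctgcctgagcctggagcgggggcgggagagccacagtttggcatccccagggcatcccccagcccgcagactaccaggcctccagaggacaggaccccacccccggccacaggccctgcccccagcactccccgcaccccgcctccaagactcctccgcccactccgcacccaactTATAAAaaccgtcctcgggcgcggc
LIPG: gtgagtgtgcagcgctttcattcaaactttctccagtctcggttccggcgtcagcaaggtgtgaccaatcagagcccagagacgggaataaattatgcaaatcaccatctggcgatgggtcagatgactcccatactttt

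The motifs searched on both strands were the direct repeat bound by PPAR with RXR (AGGTCA repeated in the same direction with 1 base between), its half-site (AGGTCA), the hypoxia-factor core in its forms ACGTG and GCGTG, and TATAAA. Promoter windows, from 250 bases before to 50 after the start, were found for 5 of the 7 members. The window of ANGPTL4 held 1 ACGTG, read on the opposite strand 234 bases before the start, and 1 TATAAA 29 bases before it. It held 0 half-sites and 0 direct repeats, which says only that these letters are not in this window. Of the 35116 promoter windows of this length, 21.4% held ACGTG, 36.5% held GCGTG, 11.5% held TATAAA, 13.8% held the half-site and 0.0228% held the direct repeat, of which the half-site is a part. The window of LIPG held 3 GCGTG matches, all of them outside the printed stretch.

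Total counts ranged from 11831093 to 18762759 over the 12 libraries. Of the pairs of replicates, those that include combination replicate 3 differed most, with a chi-square per degree of freedom of 4.45 and 3.15 against 1.44 to 2.27 for the other pairs. Without that library, the calls of the members were the same in the 2 drug contrasts, in the combination against bezafibrate and against control, and in the interaction. LIPG became called for the averaged ascites effect. Of 10 markers of serous ovarian carcinoma, 7 were tested. KRT8, KRT18 and KRT7 had 3005, 1784 and 762 CPM in control cells (CPM, counts scaled to library size with TMM factors), but PAX8 had 0.378 CPM, MUC16 0.0983 CPM and WT1 0.124 CPM, and SOX17 was at 0 in all libraries. MECOM had 38.9 CPM, EPCAM 27.6 CPM and CDH1 18.6 CPM. Keratins were thus abundant and 4 of the 10 markers were under 1 CPM in control cells. With bezafibrate 4 of the 7 tested markers were called, beside 17.6% of all genes tested. KRT7, CDH1 (to 53.3 CPM) and PAX8 (to 1.11 CPM) were higher, and MECOM was lower. With ascites present the same held for 3 of these markers, without PAX8, beside 17.8% of all genes tested. PAX8 had at most 0.614 CPM in control, under the 0.701 CPM required in at least 3 libraries for testing. It had at least 1.02 CPM in the bezafibrate libraries, so PAX8 was tested because of its level with the drug. The part of these markers in the results was not tested. Of 7 leukocyte markers 5 were at 0 in all libraries, PTPRC among them, while CD14 had 2.71 CPM in control. Of 5 adipocyte markers ADIPOQ and CIDEA were at 0 in all libraries, while LIPE had 17.5 CPM. Of 5 endothelial markers KDR was at 0 in all libraries, while PECAM1 had 0.397 CPM.

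ANGPTL4 (ENSG00000167772.12, chr19:8363289-8374373 in GENCODE 29 on GRCh38) was the member that moved most. Its level was 19.9, 18.1 and 18.4 CPM in the control libraries and 18.4, 19.8 and 19.7 CPM in the ascites libraries. It was 223.2, 223.4 and 240.5 CPM in the bezafibrate libraries, and 245.7, 242.3 and 240.4 CPM in the combination libraries. The 6 libraries with the drug all lay above the 6 without it, while control overlapped ascites and bezafibrate overlapped the combination. Bezafibrate raised ANGPTL4 from 18.8 ± 0.978 CPM to 229.04 ± 9.95 CPM (n = 3, SD), or 3.60 ± 0.050 (SE) on the log2 scale, with an adjusted p of 1.41e-36 by edgeR. With ascites present it rose from 19.3 ± 0.758 CPM to 242.8 ± 2.66 CPM, or 3.65 ± 0.050 (SE) on the log2 scale, with an adjusted p of 7.54e-37 by edgeR. Without combination replicate 3 it was 3.66. These are rises of 12.2-fold and 12.6-fold. Among the 12470 genes tested, ANGPTL4 had the 6th highest log2 fold change without ascites and the 9th highest with it. In bulk RNA, a rise in every cell and a larger rise in some of the cells cannot be told apart. By mean CPM it went from rank 7876 in control cells to rank 833 with bezafibrate.

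**Figure D1:**
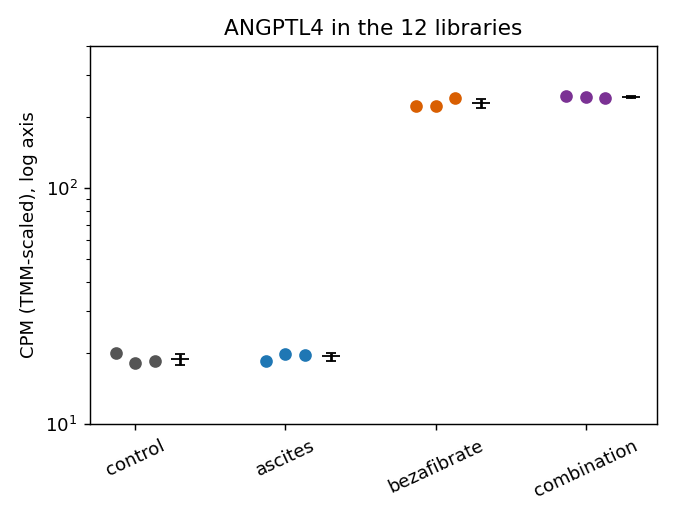
ANGPTL4 level in each library (points; CPM after TMM scaling, log axis) for the 4 groups of 3, with the group mean and SD beside the points. The 6 libraries with bezafibrate lie between 223.2 and 245.7 CPM and the 6 without it between 18.1 and 19.9 CPM.

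The replicate spread of ANGPTL4 was small in every group. Its coefficient of variation was 5.21% in control cells, where counting error alone gives 6.24%, and 3.93% with ascites, where counting error gives 6.10%. With bezafibrate it was 4.34%, where counting error gives 1.63%, and in the combination 1.10%, where counting error gives 1.74%. The observed spread was thus below counting error in every group but bezafibrate, and so few libraries give it only roughly. Its exons share 1 base with those of another gene, RAB11B-AS1, in GENCODE 29.

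No change of ANGPTL4 with ascites passed the test. The log2 fold change against control was 0.04, with a 95% interval from -0.11 to 0.18 (edgeR adjusted p 0.986). In drug-treated cells it was 0.09, with an interval from 0.01 to 0.16 (unadjusted p 0.0211, edgeR adjusted p 0.866), and 0.09 without combination replicate 3. The interaction, which asks whether the drug's effect differed with ascites, was 0.05 on the log2 scale with an interval from -0.12 to 0.22 (edgeR adjusted p 0.999). A difference between the drug effects of more than 1.16-fold in favour of ascites thus lay outside the 95% interval.

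LIPG (ENSG00000101670.12, chr18:49560699-49599182), which encodes endothelial lipase, a phospholipase that acts mainly on high-density lipoprotein, was the other member called with the drug. Its level was 17.9, 21.1 and 20.8 CPM in control, 15.9, 16.6 and 17.04 CPM with ascites, 25.02, 22.3 and 23.02 CPM with bezafibrate, and 20.001, 20.1 and 21.02 CPM in the combination. Ascites libraries were the lowest and bezafibrate libraries the highest, with no overlap, and the combination lay within the range of control. Bezafibrate raised LIPG from 19.9 ± 1.78 CPM to 23.5 ± 1.40 CPM (n = 3, SD), or 0.24 ± 0.077 (SE) on the log2 scale, with an adjusted p of 0.0243 by edgeR. DESeq2 gave the same contrast an adjusted p of 0.121. The edgeR adjusted p was 0.152 without bezafibrate replicate 1 and 0.215, at a log2 fold change of 0.16, without control replicate 1. With ascites present LIPG rose from 16.5 ± 0.582 CPM to 20.4 ± 0.557 CPM, or 0.30 ± 0.083 (SE) on the log2 scale, with an adjusted p of 0.00749 by edgeR. That call was kept without combination replicate 3 (0.28, edgeR adjusted p 0.0212) and by DESeq2 (adjusted p 0.0445).

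For ascites the LIPG values had the opposite sign and did not pass the test. The log2 fold change was -0.27 without the drug (95% interval -0.44 to -0.10, unadjusted p 0.00278, edgeR adjusted p 0.535) and -0.20 with it (interval -0.36 to -0.05, unadjusted p 0.0116, edgeR adjusted p 0.815). The mean of both ascites contrasts, a comparison added after the values were seen, was -0.24 ± 0.057 (SE), with an adjusted p of 0.0595 by edgeR. It was called without combination replicate 3 (edgeR adjusted p 0.0172) and without control replicate 1 (0.0249). Against control, the combination differed in LIPG by 0.04 on the log2 scale, with an interval from -0.13 to 0.20 (edgeR adjusted p 0.834). The LIPG interaction was 0.06 (interval -0.17 to 0.29).

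LMF1 (ENSG00000103227.19, chr16:853634-981318), the lipase folding factor, was expressed in all groups and was not called in any contrast. It had 11.9, 9.26 and 9.52 CPM in control and 10.04, 8.67 and 10.4 CPM with ascites. With bezafibrate it had 12.2, 11.8 and 11.5 CPM, and in the combination 11.1, 10.4 and 11.2 CPM. Control replicate 1 lay within the range of the bezafibrate libraries and the other control libraries below it. The log2 fold change was 0.21 for bezafibrate against control (95% interval -0.01 to 0.42, edgeR adjusted p 0.208), and 0.34 (edgeR adjusted p 0.0496) without control replicate 1. For the combination against ascites it was 0.17 (interval -0.06 to 0.40, edgeR adjusted p 0.353). In GENCODE 29, 4.79% of the LMF1 exon bases are shared with other genes, among them the antisense LMF1-AS1, and the strandedness of the counts is not given in the sources used here.

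LIPC (ENSG00000166035.11, chr15:58410569-58569843), hepatic lipase, was at the limit of detection. Its counts were 10, 8 and 6 in control, 5, 2 and 9 with ascites, 13, 7 and 7 with bezafibrate, and 12, 11 and 13 in the combination. Of the 4 libraries that reached the level required for testing, 0.701 CPM in at least 3 libraries, 3 were those of the combination, so LIPC was tested because of the group in which it was highest. Its mean was 0.373 ± 0.225 CPM with ascites and 0.912 ± 0.198 CPM in the combination (SD, n = 3), or 1.20 ± 0.46 (SE) on the log2 scale, with an adjusted p of 0.0683 by edgeR. This was 1.74 (edgeR adjusted p 0.0331) without ascites replicate 3 and 1.05 (edgeR adjusted p 0.187) without combination replicate 3. Without ascites the drug contrast was -0.11 (95% interval -1.02 to 0.80, edgeR adjusted p 0.920), and the interaction was 1.31 (interval -0.01 to 2.63, edgeR adjusted p 0.999). Of 3 hepatocyte markers (ALB, APOA2 and TTR), APOA2 was tested and rose with the drug. Their summed level ranged from 3.35 to 6.54 CPM without the drug and from 10.4 to 13.2 CPM with it, and its part in the LIPC values was not tested. The sum followed APOA2, which had 4.29 CPM in control and 11.3 CPM with bezafibrate. ALB had 0.505 and 0.277 CPM, and TTR 0.536 and 0.297 CPM, and neither was tested.

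**Figure D2:**
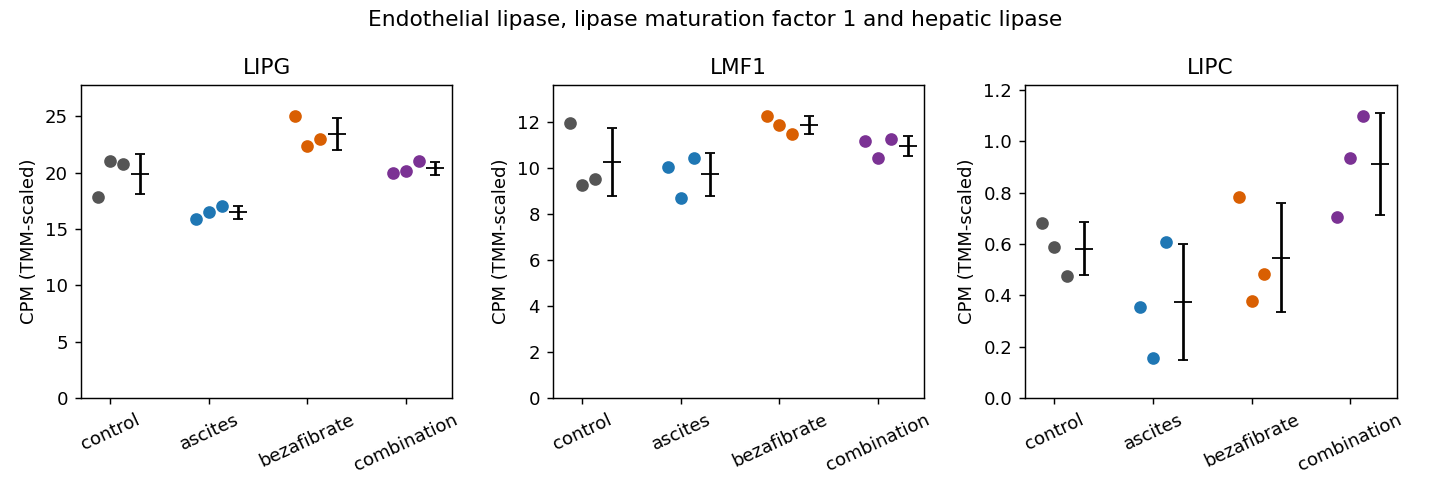
Levels of LIPG, LMF1 and LIPC in each library (points; CPM after TMM scaling, axes from 0) by group, with the group mean and SD beside the points. LIPG is lowest with ascites (15.9 to 17.04 CPM) and highest with bezafibrate (22.3 to 25.02 CPM), LMF1 overlaps between control and bezafibrate, and LIPC stays at or below 1.10 CPM.

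LPL, GPIHBP1 and ANGPTL8 were close to absent and were removed by the filter on low counts. LPL (ENSG00000175445.17, chr8:19901717-19967259) had 1 count in all 12 libraries together, in combination replicate 1, and 0 in the other 11. That is 0.00578 CPM over the 12 libraries, with an exact Poisson 95% interval from 0.000146 to 0.0322 CPM, which covers counting error only. GPIHBP1 (ENSG00000277494.2, chr8:143213193-143217170) had 12 counts, between 0 and 3 per library, with 6 in the libraries with the drug and 6 in those without. ANGPTL8 (ENSG00000130173.13, chr19:11237450-11241943) had 5 counts, 2 with the drug and 3 without, and 28.6% of its exon bases overlap DOCK6 on the opposite strand. In an exact two-sided permutation test of the 6 libraries with the drug against the 6 without it (924 arrangements, smallest possible p 0.00216), p was 0.97 for GPIHBP1 and 0.545 for ANGPTL8, and 1 for both after adjustment over the 3 genes. With 1 count in all, LPL can give no p but 1. When no filter was used, the edgeR adjusted p of these 3 genes lay between 0.653 and 1 over all contrasts. Counts this low can show neither a change nor its absence. Markers of endothelium, the usual site of GPIHBP1, summed to 0.147 to 0.849 CPM in every library.

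Read per length of the principal transcript, ANGPTL4 stood above the other members already in control cells, at 10.0 ± 0.521 CPM per kilobase (SD, n = 3). LMF1 followed at 3.91 ± 0.563 CPM per kilobase, LIPG at 1.91 ± 0.170 and LIPC at 0.211 ± 0.0375. With bezafibrate ANGPTL4 reached 121.9 ± 5.30 CPM per kilobase, against 4.52 ± 0.146 for LMF1 and 2.25 ± 0.134 for LIPG. With all annotated exon bases as the length, the control values were 7.57 for ANGPTL4, 1.52 for LIPG and 1.24 for LMF1, so the order of the last 2 depends on the length used. In these cells the transcripts of the LPL inhibitor were thus far more abundant than those of LPL itself in all 4 groups, where LPL was at 0 in 3 groups and at 0.00508 CPM per kilobase in the combination.

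Of the 4 members tested, ANGPTL4 and LIPG were called higher with bezafibrate, beside 10.1% of all tested genes called higher and 17.6% called in either direction. The combination against ascites called the same 2 higher, beside 10.5% higher and 17.8% in either direction. In the combination against control 1 member, ANGPTL4, was called, beside 18.2% of all genes. Averaged over both drug contrasts, a comparison added after the values were seen, ANGPTL4 and LIPG were called, beside 28.3% of all genes. The libraries of 2 of the 4 members did not overlap between bezafibrate and control (33.5% of all tested genes), and those of all 4 did not overlap between the combination and ascites (30.5%), where LIPC was tested because of its level in the combination.

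For ascites edgeR called 0 of the 4 members without the drug (1 at an unadjusted p under 0.05) and 0 with it (2 at an unadjusted p under 0.05), beside 0.0882% and 0.128% of all tested genes, and DESeq2 called 0 in both, with no adjusted p for LIPC in drug-treated cells. Averaged over both ascites contrasts the count was 0 (1 unadjusted, DESeq2 0, with no adjusted p for 3 of the 4), beside 0.281% of all genes. The interaction gave 0 (0 unadjusted, DESeq2 0), beside 0% of all genes. LIPG was the 1 member whose libraries did not overlap between ascites and control (12.7% of all genes), and LIPG and LMF1 were the 2 that did not overlap between the combination and bezafibrate (9.27%).

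**Figure D3:**
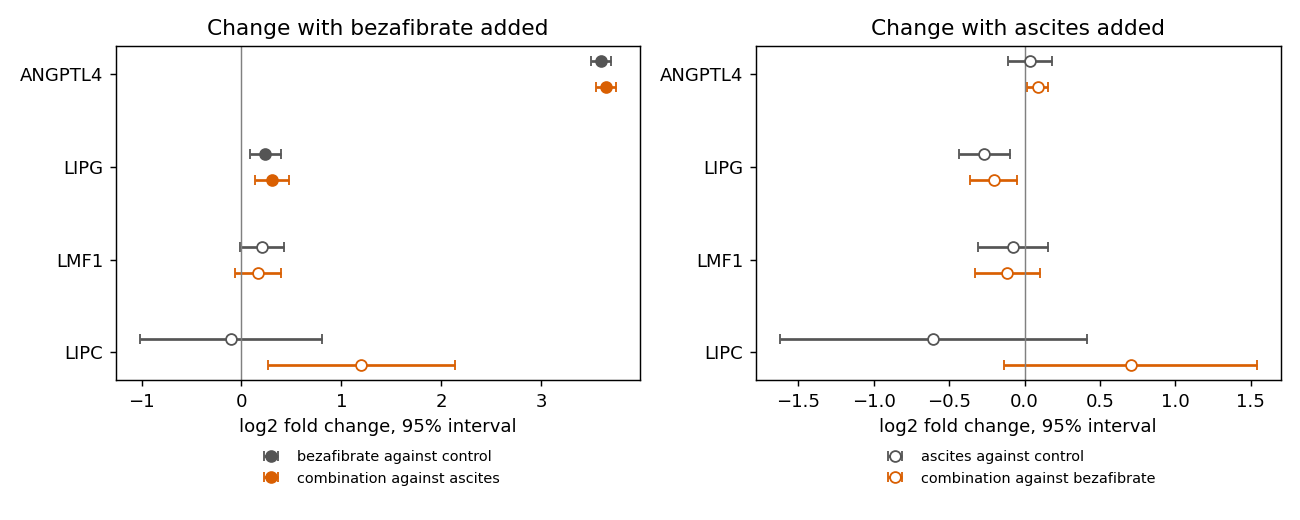
Log2 fold changes of the 4 tested members (points, filled where the edgeR adjusted p was under 0.05) with 95% intervals, when bezafibrate is added (left) and when ascites is added (right). ANGPTL4 lies at 3.60 and 3.65 with the drug and LIPG at 0.24 and 0.30, and no point is filled for ascites.

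The other genes of the pathway were taken from lists, of which 82 genes were in the tables and 64 were tested. With bezafibrate 31 of these 64 were called higher and 6 lower without ascites, and 32 higher and 7 lower with it. Of all genes tested, 10.1% were called higher and 17.6% in either direction without ascites, and 10.5% and 17.8% with it. The same shares stand beside the count of each list below. The 11 other PPAR targets, listed with earlier results known, are among those called higher in both contrasts. The median log2 fold change of the 64 was 0.11 and 0.14, beside -0.004 in both contrasts over all genes tested. For ascites against control edgeR called 0 of the 64 (6 at an unadjusted p under 0.05, DESeq2 0), and for the combination against bezafibrate it called 1, FABP4, at 0.15. Without combination replicate 3 these counts were 2 and 0, and the second was also 0 without bezafibrate replicate 2 or without bezafibrate replicate 3.

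Of the relatives of the members few could be tested. ANGPTL2, the 1 other angiopoietin-like gene tested of 6, had a log2 fold change of 0.07 with bezafibrate (edgeR adjusted p 0.596) and 0.13 in the combination against ascites (0.284). LIPH, a phosphatidic acid lipase and the 1 other lipase of the family tested of 7 listed, had -0.41 (edgeR adjusted p 0.0936) and -0.06 (0.877), and it was called without ascites when no filter on low counts was used. PLA1A, a phospholipase of the same family singled out after its values were seen, was removed by the filter. It had 1 count over the control libraries, 15 with bezafibrate (0.275 to 0.323 CPM in each library), 1 with ascites and 7 in the combination.

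Of 6 lipase cofactors and apolipoproteins, 2 were tested. APOC1, which inhibits LPL, rose from 20.9 to 36.4 CPM with bezafibrate, or by 0.80 on the log2 scale (edgeR adjusted p 1.57e-11), and from 20.6 to 36.6 CPM with ascites present (0.82, edgeR adjusted p 1.43e-11). APOE, a ligand of lipoprotein receptors, rose by 0.42 (edgeR adjusted p 0.00752) without ascites and had 0.20 (0.291) with it; without bezafibrate replicate 3 the list had 1 call without ascites. APOA5, an activator of lipolysis, was at 0 in control and in bezafibrate cells, and APOC2, the LPL cofactor, had 0.0981 CPM in control.

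All 11 genes of lipase folding, export and cleavage were tested, and 3 were called higher without ascites and 4 with it, none lower in either. PCSK6, a proprotein convertase, rose by 0.28 (SE 0.066) and 0.21 (SE 0.068). SEL1L, which LPL needs to leave the endoplasmic reticulum, rose by 0.14 (SE 0.046) and 0.22 (SE 0.048). The chaperone CANX rose by 0.08 in both. SORL1, a sorting receptor that carries LPL to lysosomes, had 0.08 (edgeR adjusted p 0.0844) without ascites and rose by 0.11 with it. Without control replicate 1, and likewise without bezafibrate replicate 2, the count without ascites was 1. Without combination replicate 3, and likewise when only the 2 groups were fitted, it was 5. The count with ascites was 2 without any 1 of the ascites libraries and 1 when only the 2 groups were fitted.

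Of 10 tested surface anchors and lipoprotein receptors, 5 were called higher without ascites, and 6 higher and 2 lower with it. VLDLR, which takes up triglyceride-rich lipoproteins with LPL, rose from 12.4 to 68.2 CPM without ascites (log2 fold change 2.46, SE 0.067) and from 11.4 to 65.2 CPM with it (2.51, SE 0.069). The proteoglycans SDC4 and GPC1, whose heparan sulphate chains bind lipases, rose by 0.46 and 0.37 without ascites and by 0.43 and 0.32 with it. SDC1, another such proteoglycan, went the other way. It had 96.0 CPM in control and 90.3 CPM with bezafibrate, and was not called. With ascites present it went from 96.9 to 86.4 CPM and was called lower, as was LSR (103.6 to 93.8 CPM). The proteoglycan HSPG2 was called in neither contrast. LRP1, a receptor for lipoprotein remnants, rose by 0.29 and 0.35. With ascites the list count of 8 was 5 without ascites replicate 2, without ascites replicate 3, and by DESeq2. CD36, a fatty acid transporter, was not tested. It had 0.166 CPM in control, 0.342 CPM with ascites, 0.378 CPM with bezafibrate and 0.447 CPM in the combination. These values rest on 7, 14, 18 and 18 counts.

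The 7 cell-surface and matrix partners of ANGPTL4 were all tested and split in direction, with 3 called higher and 2 lower in each drug contrast. The matrix protein FN1 fell by 0.51 on the log2 scale without ascites and fell by 0.44 with it, and the neuropilin NRP1 fell by 0.32 and fell by 0.33. NRP2 rose by 0.26 and 0.35, and the integrin subunit ITGB5 by 0.14 and 0.18. Summed fibroblast markers ranged from 186.1 to 196.6 CPM without the drug and from 159.05 to 177.4 CPM with it. All 3 tested were called with the drug, and their part in these values was not tested. The sum was mostly LUM, which had 183.9 CPM in control and 164.0 CPM with bezafibrate. COL1A1 had 6.23 and 3.89 CPM, and COL3A1 3.90 and 2.36 CPM. DCN and PDGFRB, at 0.0264 and 0.325 CPM in control, were not tested.

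**Figure D4:**
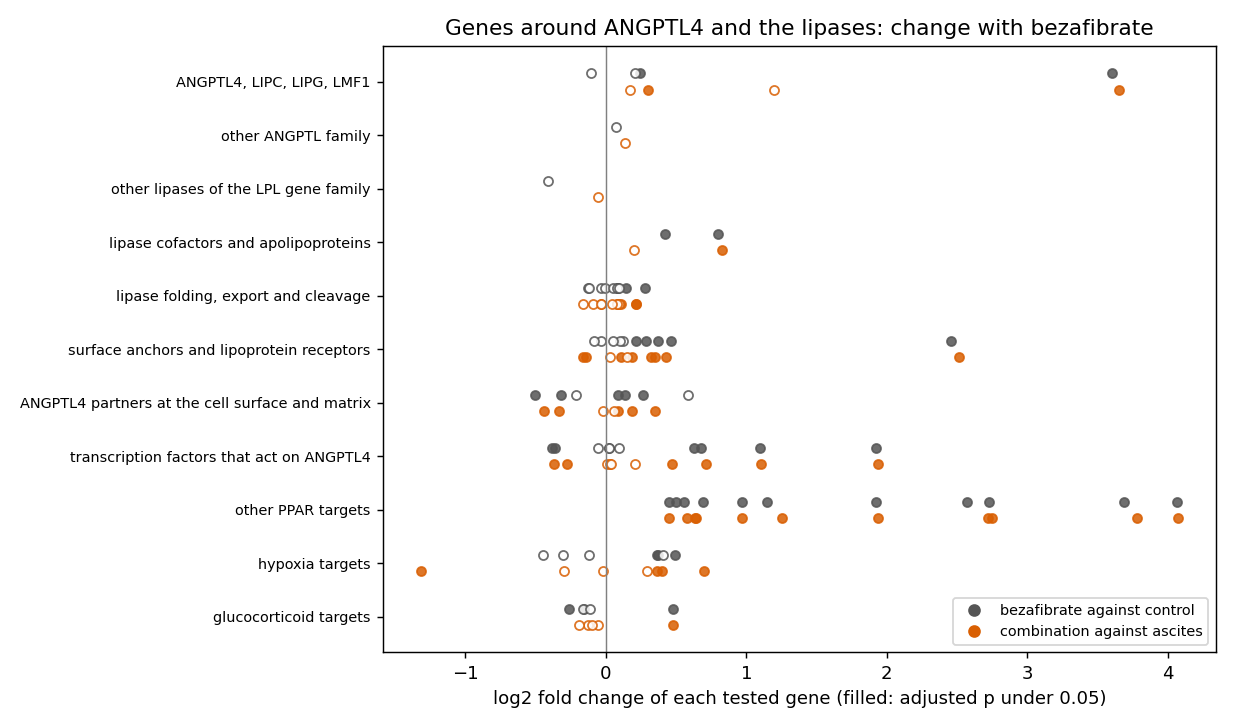
Log2 fold change of every tested gene of the lists (points, filled where the edgeR adjusted p was under 0.05) for bezafibrate against control (grey) and the combination against ascites (orange), 1 row per list. All 11 other PPAR targets lie to the right of 0, while the partners of ANGPTL4 and the transcription factors lie on both sides.

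Transcription factors that act on ANGPTL4 were tested for 10 of 11 genes, with 4 called higher and 2 lower in each drug contrast. CREB3L3, a liver factor and itself a PPAR target, rose by 1.93 without ascites and 1.94 with it, NR1H3 (LXR alpha) by 1.10 in both, the hypoxia factor EPAS1 by 0.67 and 0.71, and PPARD by 0.62 and 0.47. PPARG fell by 0.39 and fell by 0.37, from 89.8 ± 1.70 CPM in control to 68.8 ± 4.57 CPM with bezafibrate (SD, n = 3), and the glucocorticoid receptor NR3C1 fell by 0.36 and fell by 0.28. PPARA, at 4.82 ± 0.508 CPM in control, had 0.09 (edgeR adjusted p 0.777) and 0.21 (0.407). PPARG, PPARA and NR3C1 lie outside the rule for named genes and were chosen after their values were seen.

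Genes that respond to the known inducers of ANGPTL4 were set beside it. All 11 other PPAR targets were tested and called higher in both drug contrasts, with a median log2 fold change of 1.15 without ascites and 1.25 with it. PDK4, FABP4 and PLIN2 lay at 4.07, 3.69 and 2.73 without ascites. CREB3L3 is in this list and among the transcription factors. Earlier results of these data were known when this list was written, so its direction is not independent evidence. Of 7 tested hypoxia targets 3 were called higher in each drug contrast: VEGFA by 0.36 and 0.40, NDRG1 by 0.49 and 0.70, and the glucose transporter SLC2A1 by 0.37 in both. CA9, ADM and EGLN3 were called in neither contrast. CA9 went from 1.74 to 1.29 CPM without ascites and from 1.50 to 1.20 CPM with it. ADM went from 16.0 to 14.6 CPM and from 15.5 to 15.2 CPM, and EGLN3 from 0.497 to 0.677 CPM and from 0.484 to 0.582 CPM. ANKRD37 had -0.31 (edgeR adjusted p 0.602) without ascites and was called lower with it, at -1.32, from 1.41 to 0.545 CPM. Of 5 tested glucocorticoid targets, DUSP1 rose by 0.48 in both, while FKBP5 fell by 0.16 and PER1 fell by 0.26 without ascites. With ascites FKBP5 had -0.05 (edgeR adjusted p 0.470) and PER1 had -0.19 (0.211). The count of glucocorticoid targets was 1 in place of 3 for bezafibrate against control without control replicate 2, and 2 in place of 1 with ascites without combination replicate 1.

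The genes whose levels followed ANGPTL4 most closely were found by Pearson's r of log2 CPM over the 12 libraries, among the 11858 genes that averaged 1 CPM or more. They were FABP4 (r = 0.999), FABP3, PDK4, FABP5 (each 0.999) and SLC38A4 (also 0.999), and 61 genes had an r over 0.99. The libraries fall into 2 clusters, with and without the drug, so r mainly reflects that step and not its size: the log2 fold change with bezafibrate was 3.69 for FABP4, 1.99 for FABP3 and 0.65 for FABP5. For LIPG the closest were NPC1 (r = 0.976), which exports cholesterol from lysosomes, IDI1 (0.949), an enzyme of sterol synthesis, and RUFY2 (0.947). NPC1 had -0.17 with ascites and 0.12 with bezafibrate on the log2 scale (edgeR adjusted p 0.511 and 0.0948), and rose by 0.20 in the combination against ascites (0.00469).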

How the data were processed

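RNA-seq gene counts of 12 CAOV3 libraries were used. For each library the authors deposited gene counts as whole numbers. The submitters' processing notes name Trimmomatic 0.39, STAR 2.7.9a, RSEM 1.3.3, DESeq2 1.28.1 and GRCh38, with no role or order. The annotation, the strandedness and whether the counts are rounded estimates are not given in the sources used here. Coordinates and lengths came from GENCODE 29.

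Genes were kept by filterByExpr (minimum count 10, minimum total count 15) in edgeR 4.0.16, which left 12470 of 19677 genes and 4 of the 7 members. Counts were scaled by TMM and tested with edgeR's quasi-likelihood F test over all 12 libraries, with 1 mean per group, 8 residual degrees of freedom and Benjamini-Hochberg adjustment over all genes tested; a gene was called at an adjusted p under 0.05. Intervals are 95%. DESeq2 1.42.0 was an alternative. On simulated counts for bezafibrate against control (12400 genes), the fit recovered 94.2% of genes changed by 1 on the log2 scale and 94.7% of those changed by 2 (97 and 89 genes), and made 8 false calls.

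The members and lists were chosen with earlier results of these data known. Named genes were all members, up to 4 called genes per list with the largest changes, and the genes with the highest r to a called member. Some other listed genes, among them SDC1, HSPG2, LSR, CA9, ADM and EGLN3, were named outside this rule after their values were seen. Some listed genes are not reported here. Alternatives were other scalings and filters, DESeq2, fits of 2 groups, a replicate block and leaving out each library.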

Additional observations from a re-analysis of the deposited data

How the results depend on the processing

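Over 8 alternatives and 12 fits that each left out 1 library, no log2 fold change of a tested member that passed the test changed sign. ANGPTL4 stayed called in all 3 drug contrasts in every one of these fits, between 3.57 and 3.65 for bezafibrate against control and between 3.62 and 3.67 for the combination against ascites. For bezafibrate against control DESeq2 called 1 member and the fits without 1 library called 1 to 2, where LIPG was lost without bezafibrate replicate 1 and without control replicate 1. For the averaged ascites effect the count of members was 1 without a filter and 0 to 1 without 1 library. Of the genes in the other lists, 3 were called for ascites against control without a filter, 2 when only the 2 groups were fitted, and 0 to 2 without 1 library. Averaged over the drug, ascites called 5 of them without a filter and 1 to 3 without 1 library, against 3. For the combination against bezafibrate the count was 0 when only the 2 groups were fitted and 0 to 1 without 1 library. The cause was not tested. The samples share replicate numbers, but deviations of same-numbered libraries correlated between -0.135 and 0.0613 over 18 pairs, 0 of them over 0.1. No shared effect of the replicate number was thus seen, and 1 of 12 libraries correlated best with its own number. With few libraries per group, this cannot show whether the replicates were prepared in pairs. With the replicate block bezafibrate called 2 members without ascites and 2 with it, and 1 was called for the combination against control, and 0 for each ascites contrast and the interaction. The list counts with the block were 36 and 38 for the drug and 36 for the combination against control. Fits of 2 groups cannot give the interaction or the averaged effects. Counts of a few per library limit what can be said of LIPC, GPIHBP1, ANGPTL8 and LPL.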

Other observations

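Likeness to ANGPTL4 depends on whether size counts. By Euclidean distance of log2 CPM centred on the control mean, the nearest genes were FABP4 (0.386), PLIN4 (0.941), PDK4 (1.02), PLIN2 (2.35) and CSF2 (2.38). FABP4 and PDK4 were thus among the 5 nearest by both measures, while FABP5, with an r of 0.999, lay at a distance of 7.32. LIPE, the intracellular hormone-sensitive lipase and the 1 tested gene of 5 adipocyte markers, rose with bezafibrate by 0.40 on the log2 scale (edgeR adjusted p 0.000194), from 17.5 ± 0.360 to 23.1 ± 1.13 CPM (SD, n = 3), while ADIPOQ and CIDEA were at 0 in all libraries.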
